A study of Mus musculus with 12 samples.

Results

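The Shh window is the stretch of mouse chromosome 5 around the gene Shh, chr5:28770001-28810000 in the mm9 build. All contacts between a restriction fragment whose midpoint lies in this window and a fragment outside it were taken, in every group of the study. The window held 9 of the 341 HindIII fragments that all libraries share. Its fragments formed 1486 fragment pairs that were above 0 in at least 1 library, of 28980 such pairs in the region (chr5:28317087-30005000). The choice used positions only and no measured value.

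Shh codes for a secreted morphogen that is read as a gradient by cells of the neural tube, the limb bud and many other organs. Its expression in each tissue is driven by enhancers spread through a long gene desert next to it. SBE6, SBE4 and SBE2 are enhancers active in the brain or neural tube, and ZRS drives Shh in the posterior limb bud from within an intron of the neighbouring gene Lmbr1. A contact map of the Shh window therefore shows how often the gene was caught beside each of its enhancers. The method, chromosome conformation capture carbon copy (5C), fixes chromatin with formaldehyde, cuts it, religates it and counts ligated fragment pairs with pools of oligonucleotides. Here the pools alternated along the chromosome, so only pairs of opposite oligonucleotide class could be joined.

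Contacts were compared between embryonic stem cells of the mouse line 46c (ESC), neural progenitors derived from them (NPC) and ESC transfected with enhancer-directed activators. The NPC came from 46c ESC kept in N2B27, a serum-free medium for neural differentiation, for 7 days. The tSBE2-Vp64, tSBE6-Vp64 and tSBE(6+2-Vp64) groups are transfected 46c ESC, where t is read as a TALE (a designed DNA-binding protein) for the named enhancer and Vp64 is a strong transcription activator. All groups thus share the 46c line. A group with a TALE that lacks the activator was not analysed here, and untransfected ESC were the comparator, so the effects of transfection and of activation cannot be told apart. The labels call the samples biological replicates without saying whether they came from separate cultures, so the spread may be partly technical. The labelled cell types could not be checked, because the assay reads DNA and measures no marker gene.

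ESC, NPC and tSBE(6+2-Vp64) had 2 biological replicates each, and tSBE6-Vp64 and tSBE2-Vp64 had 1 each. Of 12 deposited libraries 11 were distinct, since NPC replicate 1, technical replicate 1 was deposited again as NPC replicate 2, technical replicate 2 (largest difference 4.02e-08) and was counted once, in replicate 1. Values are signal, in reads per 1000 reads of the library over the shared fragments. The smallest step between values implied between 0.978 and 48.2 M (mega) reads per library. Libraries stood apart in how widely their signal was spread. In ESC replicate 1, tSBE6-Vp64 and technical replicate 1 of tSBE(6+2-Vp64) replicate 1, 86.7%, 91.5% and 99.7% of the region's pairs were above 0, against 32.9% to 81.9% in the other 8 libraries. Results that rest on the 2 highest fragment pairs, which were low in these 3 libraries, are given with and without them where both were computed.

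The window's fragments covered 31.4 kb in all and ran from the fragment Shh_143 (chr5:28770697-28780563) to Shh_155 (chr5:28805808-28806894). They comprised 5 fragments of one oligonucleotide class and 4 of the other. Of 1489 outside pairs of opposite class 1486 were above 0 somewhere, and none of the 1499 same-class pairs was. Signal was uneven among the fragments. Shh_143, which is 9867 bp long, had the highest total, with a median of 10.4 per 1000 reads over the 8 biological replicates (range 4.09 to 17.0). Shh_154 (chr5:28805019-28805807, 789 bp) followed with a median of 6.47 (2.59 to 11.0). The lowest was its neighbour Shh_155, at 0.415 (0.365 to 1.11). The remaining 6 fragments had medians from 0.886 to 2.86. Without the 2 highest fragment pairs of the window, the medians of Shh_143 and Shh_154 were 3.49 and 3.09.

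Much of the window's signal lay in 2 fragment pairs. The pair of Shh_143 with Shh_321 (chr5:29319273-29320195, 544 kb away, between SBE2 and Rnf32) gave 0.0736 and 10.5 per 1000 reads in ESC replicates 1 and 2. It gave 7.48 and 8.15 in the technical replicates of NPC replicate 1 and 7.58 in NPC replicate 2. It gave 0.515 in tSBE6-Vp64 and 8.13 in tSBE2-Vp64. In tSBE(6+2-Vp64) it gave 0.14 and 14.3 in the technical replicates of replicate 1, and 19.6 and 5.55 in those of replicate 2. The pair was thus high in 8 libraries and low in 3, and the low ones belonged to 3 different groups. ESC replicates 1 and 2 lay on opposite sides of every NPC library.

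The second pair, Shh_154 with Shh_459 (chr5:29705291-29706210, 900 kb away, in the Lmbr1 window), was low in the same 3 libraries. It gave 0.133 and 3.10 in ESC, 5.06, 3.92 and 3.65 in NPC, 0.554 in tSBE6-Vp64 and 3.78 in tSBE2-Vp64. In tSBE(6+2-Vp64) it gave 0.134 and 5.94 in replicate 1, and 12.6 and 2.00 in replicate 2. Together both pairs held 0.947% of the window's signal in ESC replicate 1, 3.79% in tSBE6-Vp64 and 0.63% in the low tSBE(6+2-Vp64) library. In the other libraries they held 36.6% to 62.1%. The 3 libraries with low values were also the 3 with the most region pairs above 0, as given above. The part of that difference in the 2 pairs' levels was not tested.

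Both pairs stood above the pairs of neighbouring fragments in every library. Shh_143 with Shh_321 stood at a median of 559 times (6.53 to 1004) the mean of the 24 pairs of neighbouring fragments, and Shh_154 with Shh_459 at 97.8 times (5.15 to 604) the mean of 22. Shh_143 sent 1.80% to 81.6% of its outside signal to Shh_321 alone, and Shh_154 sent 2.06% to 74.9% to Shh_459. The 4 other Shh fragments that could join Shh_321 had medians of 0.00046 to 0.0475 per library, and those that could join Shh_459 had 0 to 0.0226. Whether both pairs report a contact or a property of these oligonucleotides was not tested.

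**Figure D1:**
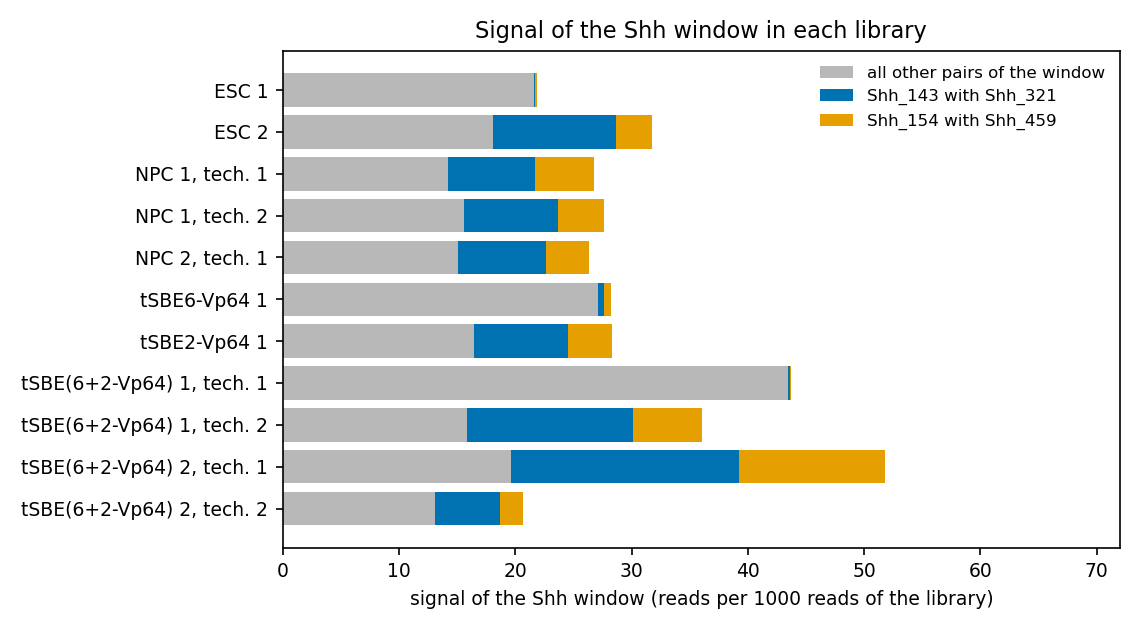
Signal of the Shh window with everything outside it in each of the 11 distinct libraries, in reads per 1000 reads of the library. Grey bars are all other pairs, blue is Shh_143 with Shh_321 and orange is Shh_154 with Shh_459. The 2 coloured pairs take 36.6% to 62.1% of the bar in 8 libraries and 0.63% to 3.79% in ESC replicate 1, tSBE6-Vp64 and technical replicate 1 of tSBE(6+2-Vp64) replicate 1.

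The next 8 pairs were smaller. Shh_154 with Shh_461 (chr5:29709706-29713030, close to Shh_459) had a median of 0.378 per 1000 reads over libraries and ranged from 0.0249 to 2.95. Shh_145 with Shh_511 (chr5:29854912-29855302, 1069 kb away and beyond Lmbr1) gave 0.509, 0.736 and 0.602 in the 3 NPC libraries. Its 8 other libraries lay between 0.00902 and 0.265. The pair is listed for its mean over all replicates, which NPC raised, so its height in NPC does not count as a trait of that group. How many other pairs of the window were highest in NPC was not counted. Shh_154 with Shh_99 (chr5:28646447-28647705, in the window of Rbm33) gave 0.508, 0.405 and 0.427 in NPC and 0.00647 and 0.134 in ESC. That pair did not set NPC apart from tSBE(6+2-Vp64), where 1 library reached 0.432.

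Among the short-range pairs, Shh_143 with Shh_140 (chr5:28763979-28767078, at -10.1 kb, toward lower coordinates) ranged from 0.0859 to 0.467. Shh_151 with the same Shh_140, at -33.4 kb, was listed at 0 in 1 library and reached 0.523 in NPC. Shh_143 with Shh_319 (chr5:29317749-29319160), which borders the partner of the highest pair, ranged from 0.00469 to 0.656. The last of the 10 were Shh_144 with Shh_237 (chr5:29078836-29081207, 0.00351 to 0.346) and Shh_154 with Shh_247 (chr5:29113253-29117196, 0 to 0.693, highest in ESC replicate 2). In ESC replicate 1 and the low tSBE(6+2-Vp64) library the 10 highest pairs of the library itself held 6.26% and 3.39% of the window's signal, and in tSBE6-Vp64 8.23%. In the other 8 libraries they held 43.0% to 73.6%.

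The summed signal of the Shh window was highest in tSBE(6+2-Vp64), at 38.1 ± 2.59 per 1000 reads (SD, n = 2). tSBE2-Vp64 followed at 28.3, tSBE6-Vp64 at 28.2, ESC at 26.8 ± 6.97 (SD, n = 2) and NPC at 26.7 ± 0.641 (SD, n = 2). The last 4 did not differ beyond the spread of ESC, whose replicates gave 21.9 and 31.7. The tSBE(6+2-Vp64) replicates, at 39.9 and 36.2, lay above both ESC replicates, but the technical replicates behind them ran from 20.7 to 51.8, across the range of all groups. Without the 2 highest pairs the order changed. tSBE6-Vp64 was then first at 27.1, before tSBE(6+2-Vp64) at 23.0 ± 9.40, ESC at 19.9 ± 2.50, tSBE2-Vp64 at 16.4 and NPC at 15.0 ± 0.120. The NPC replicates (14.9 and 15.1) then lay below the ESC replicates (21.6 and 18.1), while tSBE(6+2-Vp64), at 29.7 and 16.4, spanned ESC. An exact test of 2 against 2 replicates cannot give a two-sided p under 0.333, and the levels are given as values.

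Per fragment pair beyond 50 kb, the Shh window was not the most connected of the 43 windows of 40 kb that tile the region. It ranked from the 6th (ESC replicate 2) to the 24th (ESC replicate 1) in the 8 biological replicates. The ESC replicates alone thus spanned the whole range of ranks. These ranks include the 2 highest pairs, which held 42.9% of the window's signal in ESC replicate 2 and 0.947% in ESC replicate 1. Ranks without them were not computed.

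Most of the window's signal went to the Shh domain, the desert with the enhancers up to the Lmbr1 promoter. The domain held 54.9% of the window's pairs, the flank at lower coordinates (Insig1 to Rbm33) 24.9%, and the sequence beyond Lmbr1 20.2%. The domain's share of signal was 71.8% ± 10.5 in ESC, 78.7% ± 1.29 in NPC and 78.1% ± 7.89 in tSBE(6+2-Vp64) (SD, n = 2 each), with 70.6% in tSBE6-Vp64 and 78.8% in tSBE2-Vp64. ESC replicates 1 and 2 gave 64.4% and 79.3%, which enclosed every other group mean. Both highest pairs join the window to the domain, and without them the share was nearly the same in all groups. It was then 63.8% ± 0.248 in ESC, 61.9% ± 3.53 in NPC, 63.4% ± 0.577 in tSBE(6+2-Vp64), 63.4% in tSBE2-Vp64 and 69.4% in tSBE6-Vp64. Only tSBE6-Vp64 lay above the other 7 replicates (59.4% to 64.4%), and it has 1 library.

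The share beyond Lmbr1, again without the 2 pairs, was 9.09% in tSBE6-Vp64 and 12.2% to 17.5% in the other replicates. NPC, at 17.5% and 16.0%, lay above ESC, at 12.2% and 14.3%. The flank took 22.9% ± 1.18 in ESC, 21.3% ± 2.42 in NPC, 22.2% ± 0.130 in tSBE(6+2-Vp64), 21.5% in tSBE6-Vp64 and 21.1% in tSBE2-Vp64. All replicates lay between 19.6% and 23.8%.

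At equal distance the Shh window had more signal on its enhancer side than on its flank side. Over distances of 100 to 450 kb, and without the 2 highest pairs, the mean per domain pair was a median of 1.35 times that per flank pair (1.16 to 1.54 in the 8 biological replicates). It was above 1 in 8 of 8. From 20 to 100 kb the ratio had a median of 1.65 (0.989 to 2.20) and was above 1 in 7 of 8. From 100 to 250 kb it was 1.47 (1.01 to 1.97), and from 250 to 450 kb 1.27 (1.03 to 1.52), above 1 in all 8 replicates in both. The enhancer side was thus higher at 100 to 450 kb in every replicate, and the median ratio was lower at greater distance. No group stood apart in it, since ESC gave 1.23 and 1.49, and NPC 1.16 and 1.52.

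The signal of the window did not fall steadily along its enhancer side. Without the 2 highest pairs the median over replicates of the mean per domain pair was 0.0215 per 1000 reads at 20 to 100 kb, 0.0123 at 100 to 250 kb, 0.0138 at 250 to 450 kb and 0.0126 at 450 to 700 kb. It was 0.0158 at 700 to 950 kb, the stretch that holds Rnf32, ZRS and Lmbr1, and 0.00831 past 950 kb, beyond Lmbr1. In the median, contacts with the far end of the domain were therefore above those at 100 to 250 kb. The far-end values still hold the pair of Shh_154 with Shh_461, and the median without this pair was not computed.

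Each value was also set against the mean of all pairs of the same library at the same distance. The median of this ratio over the windows of the region lies below 1 in each distance range, so the Shh window is read against the other windows. At 20 to 100 kb, over both sides, the median ratio of the Shh window was 0.407, the lowest of 42 windows (their median 0.774). It was 0.511 at 100 to 250 kb, the 39th of 43 windows (median 0.736), and 0.620 at 250 to 450 kb, the 19th of 43. At 450 to 700 kb it was 0.687, the 12th of 43. At 700 to 950 kb it was 1.51, the 5th highest of 43 windows (median 0.848), and above 1 in 8 of 8 replicates (1.07 to 2.82). Past 950 kb it was 0.616, the 24th of 37. The Shh window thus ranked low for short-range contact and high for contact with the region of ZRS and Lmbr1, with its 2 highest pairs left out of its own values. These pairs, at 544 and 900 kb, stayed in the library means that served as divisor. They were high in 8 libraries and low in 3, so they raised that divisor unevenly. Ratios to means without them were not computed. The values at 700 to 950 kb still hold the pair of Shh_154 with Shh_461. Its signal was 0.664 and 0.573 in the technical replicates of NPC replicate 1, the replicate with the lowest ratio (1.07). It reached 2.95 in technical replicate 1 of tSBE(6+2-Vp64) replicate 2. Ratio and rank without this pair were not computed.

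**Figure D2:**
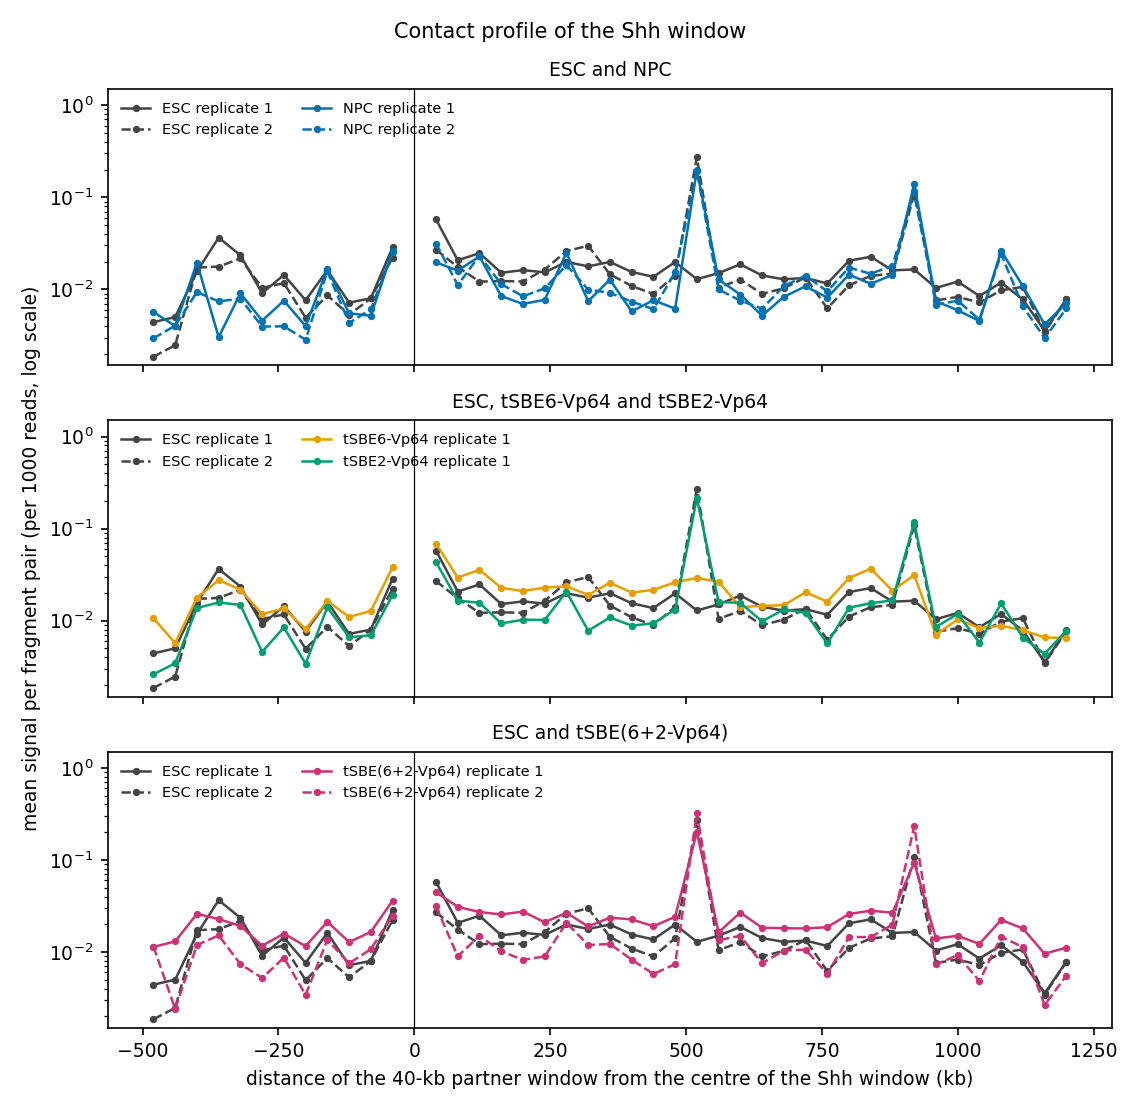
Mean signal per fragment pair (reads per 1000 reads, log scale) of the Shh window with each 40-kb window, against the distance of that window in kb, for the 8 biological replicates. Negative distances are the Insig1 to Rbm33 flank and positive ones the enhancer side. The 2 peaks at 520 and 920 kb hold the 2 highest fragment pairs and are absent in ESC replicate 1 and low in tSBE6-Vp64. From 100 kb outward the other windows of the enhancer side show no steady decline.

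Contacts with 13 elements were measured as the mean per fragment pair between the Shh window and 20 kb to either side of an approximate position; distances are to the centre of the Shh window and negative toward lower coordinates. Among the neural enhancers, Shh with SBE6, the nearest at 105 kb, gave 0.0186 and 0.0144 per 1000 reads in ESC, and 0.0192 and 0.0166 in NPC. It gave 0.0297 in tSBE6-Vp64, 0.0166 in tSBE2-Vp64, and 0.0314 and 0.0102 in tSBE(6+2-Vp64). The tSBE6-Vp64 value lay above ESC and NPC, and the tSBE(6+2-Vp64) replicates enclosed all other values.

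Shh with SBE4, at 355 kb, gave 0.0219 and 0.0164 in ESC, 0.0139 and 0.00959 in NPC, 0.0278 in tSBE6-Vp64, 0.0113 in tSBE2-Vp64, and 0.0252 and 0.0137 in tSBE(6+2-Vp64). NPC lay below ESC, and tSBE6-Vp64 was the highest replicate. Shh with SBE2, the forebrain enhancer at 460 kb, gave 0.0142 and 0.0105 in ESC, 0.00684 and 0.0103 in NPC, 0.0210 in tSBE6-Vp64, 0.0111 in tSBE2-Vp64, and 0.0198 and 0.00667 in tSBE(6+2-Vp64). In tSBE2-Vp64, the group named for this enhancer, the value lay between the ESC replicates.

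At the far end of the domain, Shh with ZRS at 850 kb gave 0.0203 and 0.0112 in ESC, 0.0112 and 0.0158 in NPC, 0.0295 in tSBE6-Vp64, 0.0152 in tSBE2-Vp64, and 0.0266 and 0.0141 in tSBE(6+2-Vp64). ESC and NPC overlapped at this limb enhancer. Shh with Rnf32, a RING finger gene at 750 kb, ranged from 0.00547 to 0.0172, with both ends in tSBE(6+2-Vp64). Shh with Lmbr1, at 915 kb, gave 0.0169 and 0.116 in ESC, 0.157 and 0.129 in NPC, 0.0334 in tSBE6-Vp64, 0.131 in tSBE2-Vp64, and 0.103 and 0.267 in tSBE(6+2-Vp64). Without the pair of Shh_154 with Shh_459 it was 0.0134 and 0.0253 in ESC, 0.0261 and 0.0220 in NPC, 0.0176 in tSBE6-Vp64, 0.0208 in tSBE2-Vp64, and 0.0140 and 0.0533 in tSBE(6+2-Vp64), and the groups overlapped.

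On the flank, Shh with En2, a homeobox gene of the midbrain and hindbrain at -295 kb, gave 0.0223 and 0.0265 in ESC. It gave 0.00405 and 0.00549 in NPC, 0.0186 in tSBE6-Vp64, 0.0127 in tSBE2-Vp64, and 0.0153 and 0.00633 in tSBE(6+2-Vp64). Both NPC replicates lay below every other biological replicate, and both ESC replicates lay above all others. Shh with Cnpy1, at -240 kb, gave 0.0143 and 0.0117 in ESC and 0.00753 and 0.00397 in NPC, also without overlap. With partner windows of 20 kb the log2 difference of Cnpy1 turned to 0.20. Shh with Rbm33, an RNA-binding protein gene at -145 kb, gave 0.0126 and 0.00819 in ESC and 0.0180 and 0.0156 in NPC. In NPC 63.5% and 68.6% of the Rbm33 signal lay in the highest fragment pair, Shh_154 with Shh_99. The order, higher in NPC, turned under 5 of 29 alternatives. Among them were scaling over pairs beyond 50 kb only (log2 difference -0.13) and leaving out the highest pair (-0.33). Shh with Insig1, a regulator of sterol synthesis at -390 kb, gave 0.0160 and 0.0182 in ESC and 0.0240 and 0.0121 in NPC, so the groups overlapped.

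Beyond the domain, Shh with Nom1, a nucleolar protein gene at 970 kb, ranged from 0.00548 to 0.0131. Shh with Mnx1, a homeobox gene of motor neurons at 1010 kb, gave 0.0160 and 0.0128 in ESC and 0.00718 and 0.00939 in NPC, with no overlap, and 0.0104 to 0.0150 in the transfected groups. Shh with Ube3c, a ubiquitin ligase gene and the farthest element at 1160 kb, had the lowest signal, 0.00265 to 0.00957. Over the 13 elements NPC lay below ESC without overlap at 5 and above at 2. Of all window pairs 32.3% and 16.3% did so, and the share over all element pairs was not computed.

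**Figure D3:**
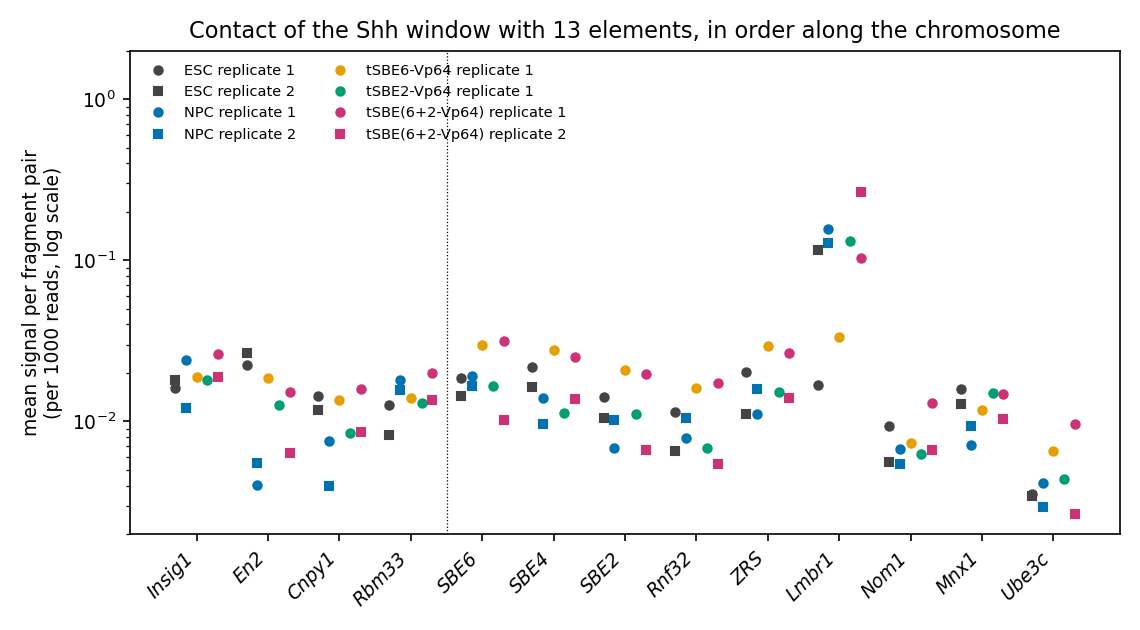
Mean signal per fragment pair (reads per 1000 reads, log scale) between the Shh window and each of 13 elements in chromosomal order, with 1 point per biological replicate and the dotted line at the place of Shh. ESC replicates lie above NPC replicates at En2, Cnpy1, SBE4, SBE2 and Mnx1 and below them at Rbm33 and Lmbr1. Among all window pairs NPC lay below ESC without overlap in 32.3% and above in 16.3%, and the share over all element pairs was not computed. The 2 tSBE(6+2-Vp64) replicates enclose the ESC replicates at Cnpy1, SBE6, SBE4, SBE2, Rnf32 and Ube3c.

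Relative to the mean of the library at the same distance, and without the 2 highest pairs, 2 elements exceeded 1 in most replicates. ZRS did so in 7 of 8 (median 1.31), and Lmbr1 in 7 of 8 (median 1.53). The Lmbr1 ratios still hold the pair of Shh_154 with Shh_461, and ratios without this pair were not computed. The library means used as divisor still hold the 2 highest pairs. SBE6, Ube3c and Cnpy1 were below 1 in all 8, with medians of 0.316, 0.360 and 0.610. For En2 the ratio was 1.38 and 1.88 in ESC and 0.145 and 0.195 in NPC. For SBE4 it was 1.54 and 1.11 in ESC and 0.372 and 0.268 in NPC. Both NPC replicates also lay below both ESC replicates in this ratio at Insig1, Cnpy1, SBE6, SBE2, ZRS, Lmbr1, Nom1, Mnx1 and Ube3c. The lower ratio was thus not particular to En2 and SBE4. At Insig1 the mean ratio was 1.09 in ESC and 0.392 in NPC, at a mean signal per pair of 0.0171 and 0.0181. At Rnf32 the groups overlapped. For Rbm33 the ratio was 0.535 and 0.564 in ESC and 1.17 and 1.10 in NPC, where the highest fragment pair held 63.5% and 68.6% of the signal.

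**Figure D4:**
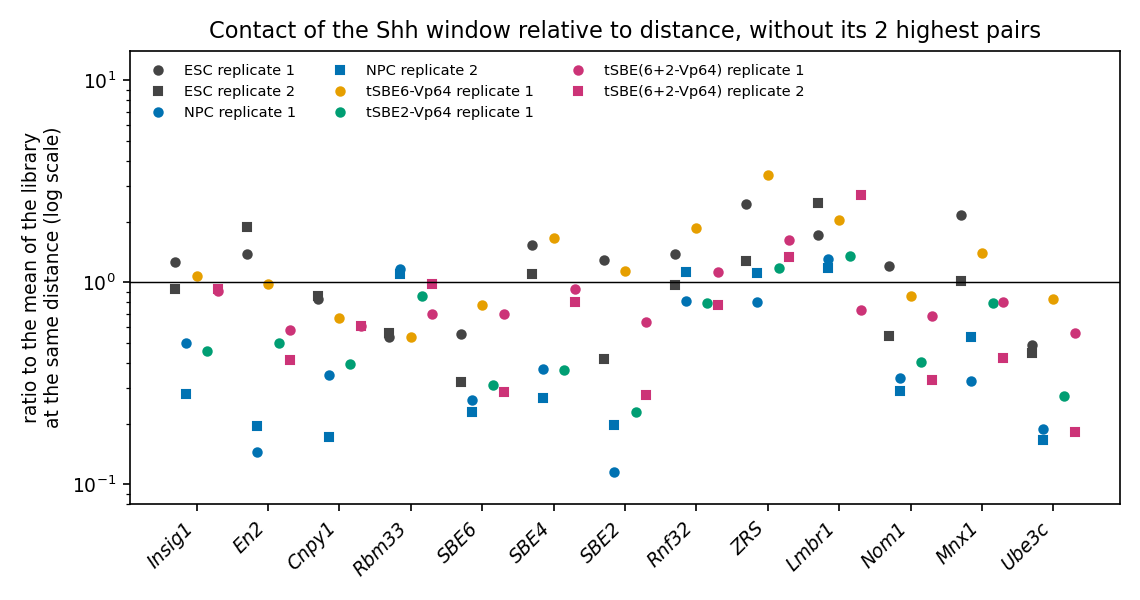
Ratio of each contact of Shh to the mean of all fragment pairs of the same library at the same distance (log scale), without the 2 highest pairs of the window, with 1 point per biological replicate. The line at 1 marks the library mean. ZRS and Lmbr1 lie above it in 7 of 8 replicates each, and SBE6, Cnpy1 and Ube3c in none. En2, SBE4 and Mnx1 show ESC above 1 and NPC below it. NPC lies below ESC without overlap at every element but Rbm33 and Rnf32. The Lmbr1 points still hold the pair of Shh_154 with Shh_461, and the library means still hold the 2 highest pairs.

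Groups were compared with limma on log2(mean per fragment pair + 0.00336507), with all groups in a joint model, on all 945 pairs of 40-kb windows, of which 42 involve Shh, and on all 91 pairs among the elements, of which 13 involve Shh. A call is a Benjamini-Hochberg adjusted p under 0.05 over the whole table, and folds of low contacts are understated on this scale. The 4 comparisons with ESC share the same 2 ESC replicates, and groups with 1 library were assumed to vary like the others. Each SE and p rests on a spread pooled over the pairs of the table, not on that of the single pair.

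NPC against ESC asks how the contacts of Shh change with neural differentiation. No window pair of Shh passed, where 3.49% of all window pairs did, and none of the 13 element pairs passed, where 0% of all element pairs did. At an unadjusted p under 0.05, 3 of 42 window pairs and 2 of 13 element pairs passed, where 11.2% of all window pairs and 4.4% of all element pairs did. The differences leaned to lower contact in NPC, with a median log2 difference of -0.28 over the 42 window pairs against -0.16 over all. In 20 of 42 both NPC replicates lay below both ESC replicates, as 32.3% of all pairs did, and in 2 above, as 16.3% did. The largest difference by element was that of En2, lower in both NPC replicates by a log2 difference of -1.77 (SE 0.54, 95% interval -2.84 to -0.70, limma adjusted p = 0.117). The size depends on where the window is set, since the 40-kb grid window that holds En2 (chr5:28490001-28530000) differed by -0.78 (SE 0.60, limma adjusted p = 0.838). Lmbr1 differed by 1.57 (SE 0.73, adjusted p = 0.743), with ESC replicate 1 far below replicate 2. The other 11 had adjusted p of 0.987 to 0.999 and differences from -0.87 at Cnpy1 to 0.57 at Rbm33. SBE6, SBE4, SBE2 and ZRS differed by 0.10, -0.58, -0.40 and -0.15, with intervals between -1.63 and 1.15.

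By window, the largest lower contact in NPC was with chr5:28410001-28450000, 360 kb into the flank. It fell short of the threshold at a log2 difference of -1.80 (SE 0.59, limma adjusted p = 0.0681), with 0.0365 and 0.0177 per 1000 reads in ESC and 0.00303 and 0.00740 in NPC. The next were chr5:29090001-29130000 in the domain, at -1.14, and chr5:28450001-28490000 in the flank, at -1.13. The only windows higher in both NPC replicates were that of Lmbr1 (chr5:29690001-29730000), at 1.47, and chr5:29850001-29890000, at 1.02. In the former 78.1% of the signal came from Shh_154 with Shh_459, and in the latter 47.7% from Shh_145 with Shh_511. Without ESC replicate 2, the windows chr5:29290001-29330000 and chr5:29690001-29730000 and the element Lmbr1 rose in NPC, where 3.92% of all window pairs and 3.3% of all element pairs passed. Without tSBE(6+2-Vp64) replicate 1, its replicate 2, or technical replicate 1 of replicate 1, chr5:28410001-28450000 and the element En2 fell. Of all window pairs 5.82%, 5.93% and 6.88% then passed, and of all element pairs 1.1% each time. En2 also fell with a Shh window of 20 kb and with the duplicated library in NPC replicate 2 or in both replicates. Of all element pairs 1.1% passed each time.

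The scaling bore on this comparison. When libraries were scaled over pairs beyond 50 kb only, the median of all window pairs moved from -0.16 to -0.76, and 12 of the 42 window pairs of Shh fell in NPC while none rose, with a Shh median of -0.94. Of all window pairs 24.8% then passed. Of the 13 element pairs En2, Cnpy1, SBE4, SBE2 and Mnx1 fell (18.7% of all element pairs passed), at a Shh median of -0.78 against -0.65 over all. When each value was divided by the library mean at its distance, En2, Cnpy1, SBE4, Mnx1 and Insig1 fell (9.89% of all element pairs passed) and no window pair of Shh passed (0.106% of all). The Shh median over elements was then -1.01 against -0.58. Contacts of Shh with En2, SBE4, SBE2 and Mnx1 were below 0 under all 29 alternatives tried. These reuse the same replicates and some change only the test, so the constant sign is not independent evidence.

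tSBE6-Vp64 against ESC asks whether an activator at SBE6 changes the contacts of Shh. No window pair (0% of all) and no element pair of Shh passed in limma, and at an unadjusted p under 0.05 the count was also 0 of 42 and 0 of 13 (0.847% of all window pairs and 0% of all element pairs). The tSBE6-Vp64 library lay above both ESC replicates in 28 of 42 window pairs, as it did in 46% of all pairs, and below both in 3, as in 15.2% of all. The median log2 difference was 0.38 over the Shh pairs against 0.25 over all. It was 0.51 over the 23 domain windows, 18 of which lay above both ESC replicates, 0.32 over the 12 flank windows and -0.16 over the 7 windows beyond Lmbr1. By element, SBE6 differed by 0.74 (SE 0.65, 95% interval -0.54 to 2.03), ZRS by 0.83, Rnf32 by 0.69, SBE2 by 0.64 and SBE4 by 0.48, all above 0 under each of 29 alternatives and all with a limma adjusted p of 0.9996. Lmbr1 differed by -0.42. The largest by window were chr5:28290001-28330000 at 1.13, the ZRS window chr5:29610001-29650000 at 0.91 and the SBE6 window chr5:28890001-28930000 at 0.90. Among windows below both ESC replicates, the lowest were chr5:29730001-29770000 at -0.23, chr5:29850001-29890000 at -0.21 and chr5:29970001-30010000 at -0.18, all beyond Lmbr1. The windows chr5:29290001-29330000, at -1.04, and that of Lmbr1, at -0.44, were lower but lay between the ESC replicates. Without ESC replicate 1, chr5:29290001-29330000 fell (0.741% of all window pairs passed).

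tSBE2-Vp64 against ESC puts the same question for SBE2. No window pair of Shh passed, where 1.69% of all did, and 1 had an unadjusted p under 0.05 (3.92% of all did). Of the element pairs 0 of 13 passed, also before adjustment (2.2% of all did). Shh with SBE2 itself differed by -0.11 (SE 0.67, 95% interval -1.42 to 1.21, limma adjusted p = 0.997), SBE6 by 0.02 and SBE4 by -0.61. En2 differed by -0.79 and Lmbr1 by 1.46. The tSBE2-Vp64 library lay below both ESC replicates in 21 of 42 window pairs, as in 31.1% of all, and above them in 6, as in 27% of all. The median difference was -0.15 over the Shh pairs against -0.05 over all. The largest lower contacts were with chr5:29090001-29130000 at -1.25, the En2 window chr5:28490001-28530000 at -0.72 and chr5:28410001-28450000 at -0.60. Among windows above both ESC replicates, the largest differences were with the Lmbr1 window at 1.35, chr5:29850001-29890000 at 0.41 and chr5:29330001-29370000 at 0.28. The window chr5:29290001-29330000, at 1.71, was higher but lay between the ESC replicates. Without ESC replicate 2 it rose, as did the Lmbr1 window and the element Lmbr1 (2.43% of all window pairs and 3.3% of all element pairs passed), and the Shh median was -0.37 against -0.23 over all. Scaled over pairs beyond 50 kb, the Shh median was -0.73 against -0.56 over all.

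**Figure D5:**
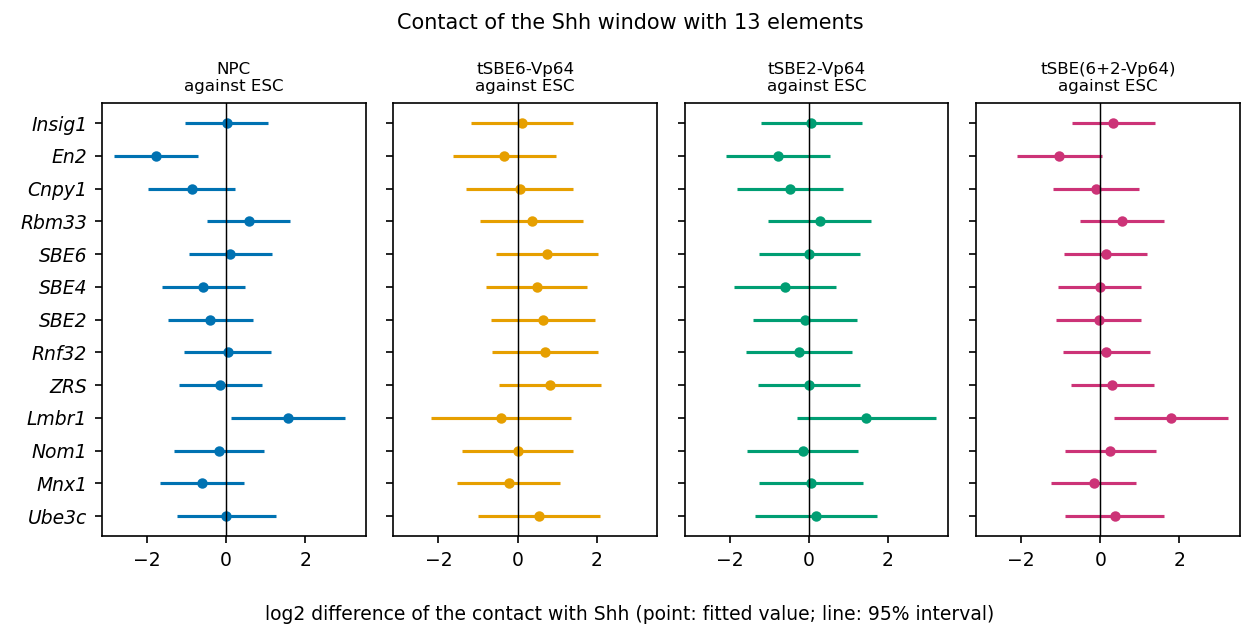
Log2 difference from ESC of the contact of Shh with each of 13 elements (points, limma) with its 95% interval (lines), in a panel for each of 4 groups. The interval of En2 in NPC runs from -2.84 to -0.70, those of SBE6, SBE4 and SBE2 include 0 in all 4 panels, and no point passed after adjustment.

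tSBE(6+2-Vp64) against ESC had 1 call of 42, where 1.69% of all window pairs passed. The window chr5:29290001-29330000, 520 kb into the domain, rose by a log2 difference of 1.95 (SE 0.56, limma adjusted p = 0.0338). This SE is pooled over window pairs and does not measure the spread of this window. With robust eBayes the SE was 1.67 and the limma adjusted p 0.998. The groups overlapped, with 0.0129 and 0.271 per 1000 reads in ESC and 0.201 and 0.322 in tSBE(6+2-Vp64). Of its signal 92.0% came from Shh_143 with Shh_321, and without the 2 highest pairs the difference was 0.53 and did not pass. It was -0.089 without ESC replicate 1, and 3.97 and still called without ESC replicate 2, when the Lmbr1 window and element rose too (2.75% of all window pairs and 3.3% of all element pairs passed). Before adjustment 3 of 42 window pairs had a p under 0.05, where 4.55% of all did. The call was also lost, at 1.60 to 2.29, without either NPC replicate or either tSBE(6+2-Vp64) replicate, and at 2.38 without technical replicate 1 of replicate 1.

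Elsewhere tSBE(6+2-Vp64) spanned ESC. In 35 of 42 window pairs the replicates overlapped, in 6 they lay above ESC (16.2% of all pairs did) and in 1 below (3.6% did). The median difference was 0.16 over the Shh pairs against 0.22 over all, and -0.27 against -0.14 when scaled over pairs beyond 50 kb. The Shh median was -0.27 without tSBE(6+2-Vp64) replicate 1, -0.23 without its technical replicate 1, 0.56 without replicate 2 and -0.021 without ESC replicate 2. Of the 13 element pairs 0 passed, with 1 below 0.05 before adjustment (3.3% of all were). SBE6, SBE4 and SBE2 differed by 0.13, -0.01 and -0.04, with intervals between -1.11 and 1.18. Lmbr1 differed by 1.79 (SE 0.73, limma adjusted p = 0.693) and En2 by -1.04 (adjusted p = 0.989). En2 fell under both alternative scalings (2.2% of all element pairs passed in each), and without tSBE(6+2-Vp64) replicate 1 or its technical replicate 1 (4.4% in each). Among windows that moved alike in every replicate, the highest were chr5:28290001-28330000 at 1.21, chr5:29850001-29890000 at 0.61 and chr5:28690001-28730000 at 0.56, and the one lower window was chr5:28450001-28490000 at -0.74.

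tSBE(6+2-Vp64) was also set against NPC, to see whether activated ESC differ from neural cells in the contacts of Shh. No window pair (0% of all) and no element pair passed, while 1 window pair and no element pair of Shh had an unadjusted p under 0.05 (4.44% and 0% of all did). The difference was above 0 in 40 of 42 window pairs, with a median of 0.46 against 0.41 over all pairs. That median was 0.054 (all -0.050) without tSBE(6+2-Vp64) replicate 1, 0.065 without its technical replicate 1 and 0.90 without replicate 2. In 16 of 42 both tSBE(6+2-Vp64) replicates lay above both NPC replicates, as in 33.3% of all pairs, and in 1 below, as in 3.92% of all. By element 12 of 13 differences were above 0, the highest being Cnpy1 at 0.76 and En2 at 0.73 (limma adjusted p = 0.987). Without tSBE(6+2-Vp64) replicate 2, En2, Cnpy1 and Ube3c rose, where 20.9% of all element pairs passed. By window the highest were chr5:28410001-28450000 at 1.40, chr5:29370001-29410000 at 1.03 and chr5:28290001-28330000 at 0.97, and the one lower window was chr5:29850001-29890000 at -0.41.

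The 2 single activators were compared with each other on 1 library each. Of 42 window pairs 1 passed, where 1.16% of all did, and 2 had an unadjusted p under 0.05, where 3.49% of all did. The window chr5:29290001-29330000 fell by 2.75 on the log2 scale in tSBE6-Vp64 (SE 0.80, limma adjusted p = 0.0499), from 0.215 to 0.0291 per 1000 reads. Without the 2 highest pairs the difference was 0.0055. The call was lost at a nearly equal difference (-2.75 to -2.74) without any 1 NPC or tSBE(6+2-Vp64) replicate. Of the element pairs 0 of 13 passed, also before adjustment, as did 0% of all element pairs. The median over the Shh element pairs was 0.46 against 0.20 over all. SBE4, Rnf32, ZRS, SBE2 and SBE6 differed by 1.09, 0.94, 0.82, 0.75 and 0.73, and Lmbr1 by -1.88 (SE 1.03), with an adjusted p of 0.984 for each. The median was 0.62 over the Shh window pairs against 0.30 over all, and 0.83 over domain windows, 0.58 over flank windows and -0.15 beyond Lmbr1. The largest by window were chr5:28290001-28330000 at 1.23, the Rnf32 window chr5:29530001-29570000 at 1.11 and the ZRS window chr5:29610001-29650000 at 1.09. After the call, the lowest were the Lmbr1 window at -1.80 and chr5:29850001-29890000 at -0.63.

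Of the 13 other elements, Cnpy1 had the total most like that of Shh over the 8 biological replicates, by the Spearman correlation of signal with everything over 50 kb away (0.667). It ran from 16.8 to 28.8 per 1000 reads. Nom1 (0.119) and En2 and Rbm33 (0.0952 each) followed. All points share the scaling of their library, and the values are a description of 8 replicates.

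The profile of the window over its single fragment pairs, without the 2 highest, was poorly repeated. Its Spearman correlation between technical replicates was 0.187 to 0.918 (3 pairs of libraries), between replicates of a group 0.234 to 0.372 (7 pairs) and between groups 0.178 to 0.727 (45 pairs). The median was 0.283 within groups and 0.335 between them, so libraries of a group were no more alike than libraries of different groups at the level of single fragment pairs. The highest values between groups, 0.674 to 0.727, joined the 3 libraries with the most pairs above 0. How far the correlations depend on the share of pairs above 0 was not tested.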

How the data were processed

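5C libraries of 5 groups were analysed from the authors' deposited matrices. Their signal values, scaled by the authors, give reads of a fragment pair per 1000 reads. Coordinates are mm9, per the submitters' processing notes. Aligner and read filters were not given in the sources used here. Libraries were rescaled to 1000 over 341 shared fragments, technical replicates were averaged and the duplicated NPC library was counted once. Pairs at 0 in every library were left out. Window pairs above 0 in at least 2 replicates were tested with limma 3.58.1 (R 4.3.3, eBayes with trend, two-sided, all 5 groups), with 3 residual degrees of freedom. The prior degrees of freedom were infinite, so the test used a spread pooled over pairs that share the same 8 replicates (2835 degrees of freedom for windows, 273 for elements), with a pseudocount at the 5th percentile of values above 0. Reads carry no molecular identifiers, so depth sets counting error only. Element positions are approximate, and 4 averaged matrices were not used. Named windows are those that passed, the 3 largest rises and falls per comparison that moved alike in every replicate, and the 10 highest fragment pairs; likeness names the 3 elements with the highest Spearman correlation (a tie gave 4). Members and lists were chosen with earlier results of these data known. The fit was tested on simulated data, and 27 planned and 2 added alternatives were run. Tables were made with pandas 2.3.3, scipy 1.17.1, numpy 2.4.6 and Python 3.11.15, and figures with matplotlib 3.10.9.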

Additional observations from a re-analysis of the deposited data

Results flagged for a closer look

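Contacts of Shh were examined for single libraries far from the others among the 4 libraries of tSBE(6+2-Vp64), in 18 measures, of which chance picks out about 1 in 20. In 3 measures technical replicate 1 of replicate 1 stood far above the rest of its group. Its contact of Shh with Cnpy1 was 0.0225 per 1000 reads per fragment pair, against 0.00986 in the next library. With Rnf32 it was 0.0266 against 0.00783, and with ZRS 0.0386 against 0.0152. In this library 99.7% of the region's pairs were above 0, and the part of that in the 3 contacts was not tested.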

How the results depend on the processing

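All 29 alternatives, 27 planned and 2 added after seeing the data, were run; of the values recomputed 2391 kept direction and side of the threshold, 68 lost a call, 45 gained one and 28 changed sign. The cause was not tested unless stated. The alternatives reuse the same replicates, so a sign that stays the same under all of them is a description only. Window pairs of Shh that passed in NPC against ESC numbered 0 of 42 as reported, where 3.49% of all window pairs passed. They numbered 12 with scaling over pairs beyond 50 kb (24.8% of all) and 1 with a pseudocount 4 times lower (3.49%). With a Shh window of 20 kb they numbered 1 and with 80 kb 2 (3.6% of all each). Partner windows of 20 kb gave 1 of 82 (0.609% of all). With the duplicated library placed in NPC replicate 2 they numbered 2 (4.55%), and with it in both replicates 3 (5.19%). Without technical replicate 1 of tSBE(6+2-Vp64) replicate 1 the number was 1, with the share of all pairs given above. tSBE2-Vp64 against ESC had 1 with a Shh window of 80 kb (1.59% of all window pairs passed). The 1 call of tSBE(6+2-Vp64) against ESC became 2 with the duplicated library in both replicates (2.12% of all window pairs passed). With a Shh window of 80 kb chr5:29290001-29330000 no longer passed (1.75) and another window did, so the count stayed at 1 (1.48% of all). It became 0 under both scalings, with a pseudocount 4 times higher, Shh or partner windows of 20 kb, fragment pairs limited to the 95th percentile, means of log2, each library as a column and robust eBayes, and without pairs over 0.5% of a library, the highest pair of each window pair, the 2 highest Shh pairs or that technical replicate. The 1 call of tSBE6-Vp64 against tSBE2-Vp64 became 0 under the same settings and also with values as deposited, a Shh window of 80 kb and no trend. Settings that remove or limit the highest pairs lose both calls by construction. Leaving out 1 replicate at a time left 1 replicate in a group, so counts of calls from these fits are not listed again. Windows that passed against ESC in such a fit are named above with the share of all window pairs.

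Same-numbered samples of 2 groups correlated at -0.104 (ESC, NPC), 0.440 (ESC, tSBE(6+2-Vp64)) and 0.0209 (NPC, tSBE(6+2-Vp64)). The labels do not say whether the numbers pair the samples, and so few correlations of mixed size cannot decide it. With the replicate block 1 pair passed in NPC and 1 in tSBE2-Vp64 against ESC, and the other counts did not move. The shares of all window pairs that passed in this fit are not listed here.

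Signs changed as follows (log2 differences). In NPC against ESC, Rbm33 was -0.13 scaled over pairs beyond 50 kb, -0.16 with a Shh window of 20 kb, -0.33 with limited pairs, -0.18 as a mean of log2 and -0.33 without the highest pair; Insig1 was -1.29 divided by the mean at its distance, Nom1 2.54 with a Shh window of 80 kb and Cnpy1 0.20 with partner windows of 20 kb. For Lmbr1 a Shh window of 20 kb, limited pairs and the mean of log2 gave -0.52, -0.35 and -0.087 in NPC, -0.85, -0.17 and -0.00932 in tSBE(6+2-Vp64), and 0.45, 0.46 and 0.29 in tSBE6-Vp64 against tSBE2-Vp64; the first 2 gave -0.60 and -0.26 in tSBE2-Vp64. The window chr5:29290001-29330000 was -0.21 with partner windows of 20 kb in tSBE(6+2-Vp64) against ESC, and from -0.089 (without ESC replicate 1) to 3.97 (without ESC replicate 2) with 1 replicate left out. In tSBE6-Vp64 against tSBE2-Vp64 it was 0.25 with Shh or partner windows of 20 kb, 0.31 with limited pairs, 0.37 as a mean of log2 and 0.0055 without its highest pair, without pairs over 0.5% or without the 2 highest. The difference in domain share crossed 0 but moved by less than 1 SD of the replicates, from -1.93 to 15.8 percentage points for NPC and from -1.17 to 13.7 for tSBE(6+2-Vp64), minus ESC. Single fragment pairs were sparse, with 35.4% of those of Shh above 0 in a library of 9.25 M implied reads and 59.5% in one of 0.978 M.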
